A study of Mus musculus with 6 samples.

Results

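The genes of glycolysis and of the response to low oxygen were examined in the retinas of OC1-KO and WT mouse embryos. A list of 40 genes was read: 16 enzymes of glycolysis, 4 enzymes that set the fate of pyruvate, 4 glucose and lactate carriers, 7 genes of oxygen sensing and 9 genes that are induced by low oxygen. Each gene was read from the brightest probe set, by the mean over the 6 arrays, among those annotated to that gene alone. Of the 40 genes, 38 had such a probe set, of 18193 genes with one on the array. The signal filter of the study, a mean log2 signal above 7 in either genotype, was passed by 35 of them and by 10529 genes in all. Gpi1 and Eno1 had no probe set of their own, Adm and Car9 stayed below the filter, and Gapdh was read from control probe sets of the array, which stay outside the fit.

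The samples were 3 OC1-KO and 3 WT retinal preparations, each from 1 embryo and hybridized to 1 Affymetrix mouse genome array, with the embryos of each genotype numbered 1 to 3. OC1-KO embryos carry the null allele of Onecut1, a homeodomain transcription factor, in every cell, and WT embryos were littermates without it. Both groups come from the same mixed stock, since the allele was made in R1 ES cells, passed through Swiss mice and then crossed to C57Bl/6. The labels do not give the strain alleles of each embryo, near Onecut1 or elsewhere, and these can differ between the groups. The labels of the samples give the age as E14, and the text on the design as E14.5. The values are MAS5 signals, with each array scaled to the same trimmed mean, and are given here on the log2 scale.

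Glycolysis splits glucose into pyruvate in a chain of enzyme steps, and lactate dehydrogenase turns pyruvate into lactate where it is not burnt in the mitochondria. Dividing retinal progenitors and photoreceptors are known for making lactate even when oxygen is present. When oxygen falls, the prolyl hydroxylases that mark the HIF alpha subunits for destruction slow down, and the HIF dimer then binds short elements near genes for glucose uptake, glycolysis, vessel growth and mitophagy.

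HIF binds a core of the letters ACGTG or GCGTG, and the 250 bases upstream of the annotated start were searched for these letters on both strands. RefSeq windows on the build GRCm38.p6 were found for 37 of the 40 genes, all but Epas1, Ndrg1 and Slc2a3, with 52 windows in all because several genes have more than 1 start. A core stood in 42 of the 52 windows (80.8%), against 12679 of 32851 windows of all genes (38.6%). ACGTG was in 50.0% of the windows of the listed genes and in 16.6% of all windows, and GCGTG in 57.7% and 28.2%. The palindrome CACGTG, which holds ACGTG on both strands, was in 11.5% and 6.02%. The median window of the listed genes had 14 CpG pairs, against 6 in all windows, and both cores contain a CpG, so base composition and the core move together. The windows of 4 genes on which the comparisons below turn are printed 5′ to 3′ on the strand of the gene, with the cores of either strand in capitals. Slc2a1 (chr4:119108495-119108744, plus strand) is the gene whose genotypes did not overlap on the most probe sets. Pfkp (chr13:6648772-6649021, minus strand), Egln3 (chr12:54203875-54204124, minus strand) and Ddit4 (chr10:59951771-59952020, minus strand) had the smallest p in the contrast by embryo number. The annotated span of Pfkp reaches to 6649060 on chromosome 13, so its window lies inside the gene as annotated.
Slc2a1: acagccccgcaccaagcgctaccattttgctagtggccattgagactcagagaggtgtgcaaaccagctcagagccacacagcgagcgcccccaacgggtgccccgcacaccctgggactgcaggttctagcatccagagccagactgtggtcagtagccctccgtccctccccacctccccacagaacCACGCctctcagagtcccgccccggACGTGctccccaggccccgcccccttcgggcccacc
Pfkp: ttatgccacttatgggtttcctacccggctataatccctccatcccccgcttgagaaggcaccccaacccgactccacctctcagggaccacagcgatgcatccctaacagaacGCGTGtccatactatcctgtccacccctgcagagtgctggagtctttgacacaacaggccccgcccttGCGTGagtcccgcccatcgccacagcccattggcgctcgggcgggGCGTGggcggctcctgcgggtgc
Egln3: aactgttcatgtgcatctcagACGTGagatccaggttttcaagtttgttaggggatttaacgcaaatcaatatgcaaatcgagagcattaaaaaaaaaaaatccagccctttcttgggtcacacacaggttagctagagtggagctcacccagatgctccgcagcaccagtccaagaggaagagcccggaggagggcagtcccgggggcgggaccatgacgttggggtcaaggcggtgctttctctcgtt
Ddit4: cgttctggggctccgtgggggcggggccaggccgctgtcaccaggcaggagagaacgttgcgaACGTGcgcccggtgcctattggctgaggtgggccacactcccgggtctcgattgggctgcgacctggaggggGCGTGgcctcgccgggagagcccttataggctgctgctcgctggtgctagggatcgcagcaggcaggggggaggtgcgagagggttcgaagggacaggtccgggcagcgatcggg
The Pfkp window has 3 cores, all GCGTG. The windows of Slc2a1 and Ddit4 have 1 ACGTG and 1 GCGTG each, and that of Egln3 has 1 ACGTG. Such a match describes the letters of a window and is not a measured binding site.

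The arrays themselves had a median signal of 85.0 to 104 and 43.4% to 46.7% of probe sets above the filter. Both low ends belonged to OC1-KO 3, and the next lowest array, WT 1, had 97.3 and 45.5%. The arrays of embryos numbered 3 stood apart in both genotypes. Lens genes gave a summed log2 signal of 13.74 and 14.79 in the embryos numbered 3, against 7.998 to 8.94 in the others, with 11 of 11 measured markers higher. Red blood cell genes summed to 14.02 and 14.55 against 6.63 to 9.58 (7 of 8 higher), and periocular mesenchyme genes to 11.31 and 11.59 against 8.80 to 9.43 (8 of 8 higher). Pigment epithelium genes summed to 9.83 and 11.05 against 8.25 to 9.63 (9 of 9 higher), macrophage genes to 10.71 and 10.88 against 10.34 to 10.53 (10 of 10 higher), and endothelial genes to 10.68 and 10.72 against 10.77 to 11.32 (3 of 10 higher). Only Kdr and Cldn5 of the endothelial genes passed the filter. In the embryos numbered 3 Kdr was at -0.58 (SE 0.24) and Cldn5 at 0.52 (SE 0.17) relative to the others, on the log2 scale. The 10 measured markers of retinal progenitors and neurons, of 12 listed, summed to 16.12 to 16.27 in OC1-KO and 15.99 to 16.29 in WT retinas. The targeted gene Onecut1 gave 9.02, 8.31 and 9.67 in the OC1-KO embryos against 9.25, 8.76 and 9.005 in the WT embryos on its brighter probe set. The place of its probe sets in the gene, inside or outside the deletion, could not be read from the sources, so the signal checks nothing about the allele.

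Between the genotypes, most differences of the glycolysis and hypoxia genes were small, as they were over the whole array. Of the 35 genes kept, 25 were higher and 10 lower in OC1-KO retinas, with a median log2 difference of 0.04, and over all 20888 probe sets kept 47.7% were higher, with a median of -0.01. The differences ran from -0.29 for the lactate exporter Slc16a3 to 0.41 for Epas1, and 31 of the 35 (88.6%) lay within 0.25 of 0 on the log2 scale, against 85.9% of all probe sets kept. These shares compare unlike sets, since the 35 are the brightest probe set of each gene and the others include dimmer ones. The median SD within a genotype was 0.19 for the 35 and 0.24 for all probe sets kept. None of the 35 had an adjusted p under 0.05 by limma, as was the case for 0.00% of all probe sets kept, and the adjusted p was 1.00 for each. At an unadjusted p under 0.05 limma called 0 of the 35, against 1.01% of all probe sets, limma with the embryo number as a block 0 against 4.37%, and the test of the study's methods, which uses no shared spread, 2 against 1.51%, Aldoc and Slc2a1, of which Aldoc passed the filter through its OC1-KO mean alone. A p above the threshold does not show that the genotypes are alike, and the p-values measure only the spread between these embryos. With retinas taken whole, fewer cells of a type and less RNA per cell cannot be told apart.

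**Figure D1:**
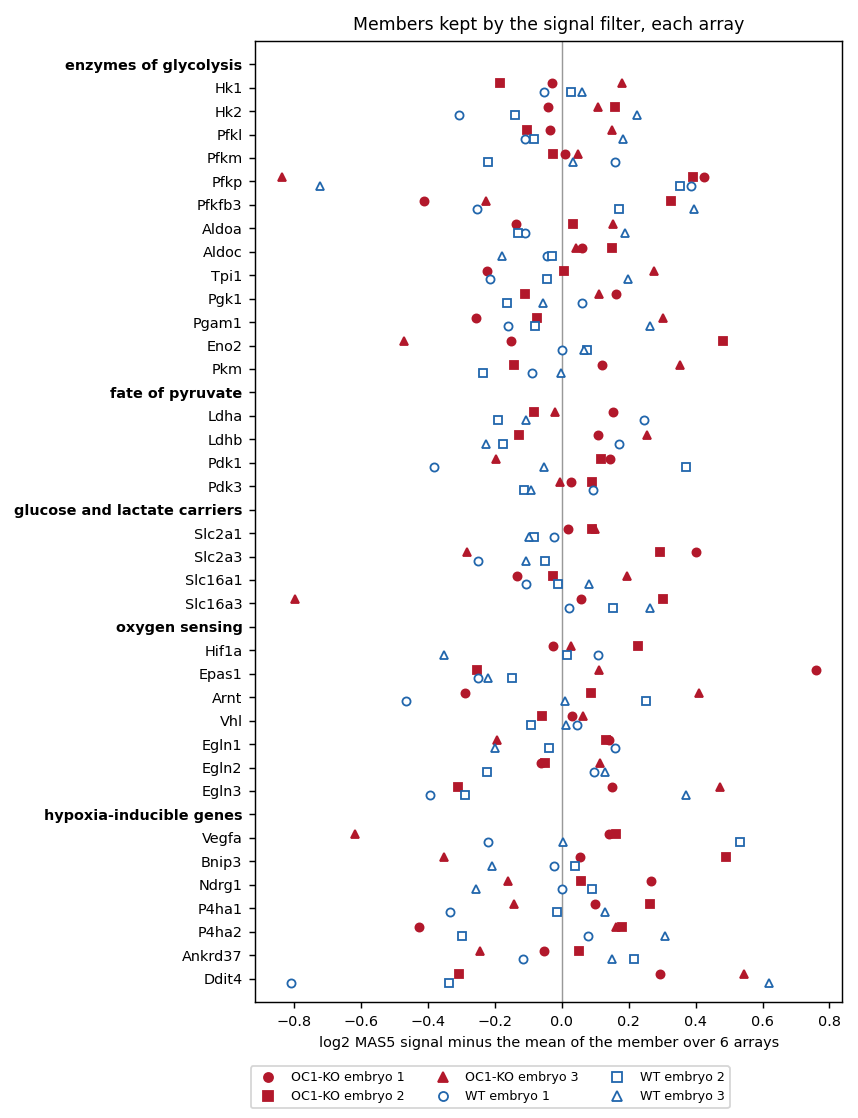
Log2 MAS5 signal of the 35 genes kept, each value minus the mean of that gene over the 6 arrays, with genes grouped by role. Filled red symbols are OC1-KO embryos and open blue symbols WT embryos; the symbol shape gives the embryo number. The OC1-KO and WT symbols overlap in 33 of the 35 genes, all but Aldoc and Slc2a1, and the triangles of embryos numbered 3 lie at an end of many rows, as for Pfkp.

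Medians over the 35 genes, with each gene centred on its mean, were 0.03, 0.06 and 0.06 in the OC1-KO embryos against -0.05, -0.05 and 0.01 in the WT embryos, on the log2 scale. The same medians over all probe sets kept were 0.03, 0.03 and -0.04 in OC1-KO and 0.02, 0.02 and -0.01 in WT. Among the listed genes all 3 OC1-KO medians lay above all 3 WT medians. With the medians over all probe sets taken off, OC1-KO 1 fell below WT 3, so the groups overlapped. The count of 25 higher rested on the choice of 1 probe set per gene: with the mean of all probe sets of a gene, 16 of the 29 genes then measured were higher. Of the 17 genes with several probe sets kept, 5 had the same sign on all of them and 12 did not.

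The enzymes of glycolysis, from glucose phosphorylation to pyruvate, were split in 8 higher and 5 lower of 13 kept, with a median of 0.02, and every one of the 13 lay within 0.25 of 0. Aldoc, the brain form of aldolase, had log2 signals of 7.05, 7.14 and 7.03 in the OC1-KO embryos, numbers 1 to 3, against 6.94, 6.96 and 6.81 in the WT embryos. The 3 OC1-KO values all exceeded the 3 WT values, at 1.12-fold in the mean, or a log2 difference of 0.17 (SE 0.14; limma, unadjusted p = 0.260). Aldoc passed the filter through its OC1-KO mean alone, 7.07 against 6.90 in WT, and its other probe set lay below the filter.

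Gapdh, which oxidizes glyceraldehyde phosphate, was read from its brightest control probe set at 14.52, 14.33 and 14.90 in OC1-KO and 14.74, 14.16 and 14.54 in WT. The genotypes overlapped, with a difference of 0.10 (SE 0.26). The 3′ minus 5′ difference of these control probe sets was -0.49 in OC1-KO 3 and -0.42 in WT 3, and -0.27 to -0.24 in the other 4 arrays. Pkm, the pyruvate kinase gene, had 13.32, 13.06 and 13.56 in OC1-KO and 13.11, 12.97 and 13.20 in WT, and was 0.22 higher (SE 0.18) with overlapping groups. It was among the 4 genes of the list that were higher in each of the 3 same-numbered pairs, with Aldoc, the phosphoglycerate kinase Pgk1 and Slc2a1. Over all probe sets kept the share was 10.3%, and Aldoc, kept through its OC1-KO mean, does not count as support. Pgk1 was lower in each of the 3 pairs on another probe set kept, at -0.04 (SE 0.14). Its last probe set differed by -0.48 (SE 0.46).

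Enzymes that decide the fate of pyruvate were higher in 4 of 4 on their brightest probe sets, by 0.03 to 0.16. Ldha, the lactate dehydrogenase subunit that favours lactate, had 14.13, 13.89 and 13.95 in OC1-KO and 14.22, 13.78 and 13.87 in WT. Its values were interleaved between the genotypes, with a difference of 0.03 (SE 0.17) that turned to -0.03 after quantile normalization and to as low as -0.05 with 1 array left out. The heart form Ldhb differed by 0.16 (SE 0.18), and the pyruvate dehydrogenase kinases Pdk1 and Pdk3, which close the way into the mitochondria, by 0.04 and 0.08. Of the 4 probe sets kept for Ldhb, 1 was lower, at -0.11 (SE 0.17). Of the 3 kept for Pdk1, 1 was lower, at -0.28 (SE 0.33).

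Among the carriers, the values of the glucose transporter Slc2a1 did not overlap between the genotypes. Its log2 signals were 13.62, 13.69 and 13.70 in the OC1-KO embryos against 13.58, 13.52 and 13.51 in the WT embryos. The gap was 0.04, between OC1-KO 1 and WT 1. The mean was 13.67 ± 0.04 in OC1-KO and 13.53 ± 0.04 in WT (SD, n = 3 each), a log2 difference of 0.14 (SE 0.13), or 1.10-fold, and 0.076 after quantile normalization. The unadjusted p was 0.335 by limma, which shares the spread of all probe sets, and 0.0158 by the methods' test. Another probe set of Slc2a1 did not overlap either, at 13.53, 13.49 and 13.51 in OC1-KO against 13.39, 13.35 and 13.41 in WT. The last one was higher by 0.10 (SE 0.16) with overlap. Over all probe sets kept, 1.70% had all OC1-KO values above all WT values and 1.86% had all below. Of the 35 genes, Slc2a1 and Aldoc were above, Aldoc having passed the filter only through the genotype in which it is high, and 0 were below.

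Slc2a1 is also made by endothelium and by red blood cell precursors, so their markers were read beside it. The 10 endothelial markers summed to 10.72 to 11.32 in OC1-KO and 10.68 to 11.23 in WT, and the red cell markers to 6.63 to 14.55 and 7.19 to 14.02. Of the endothelial markers 8 lay below the filter, and Kdr made up most of their sum. Of the 8 red cell markers measured, 7 lay below the filter, so the sums give only a coarse view of these cells. Of the pigment epithelium markers, 8 of 9 were higher in OC1-KO, and 6 lay below the filter. They summed to 9.23 to 11.05 in OC1-KO and 8.25 to 9.83 in WT, and their part in the result was not tested.

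The neuronal glucose transporter Slc2a3 had 10.77, 10.66 and 10.08 in OC1-KO and 10.11, 10.31 and 10.26 in WT. OC1-KO 1 and 2 lay above all WT values and OC1-KO 3 below them, and the difference of 0.27 (SE 0.21) reached an unadjusted p under 0.05 without OC1-KO 3. The other probe set of Slc2a3 kept differed by 0.04 (SE 0.19), with OC1-KO 1 at 8.55, below WT 2 and WT 3 at 8.67 and 8.72. Slc16a1, which carries lactate in or out, differed by 0.02. The lactate exporter Slc16a3 differed by -0.29 (SE 0.29), with 6.91 in OC1-KO 3 and 7.73 to 8.01 in the other 5 embryos.

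**Figure D2:**
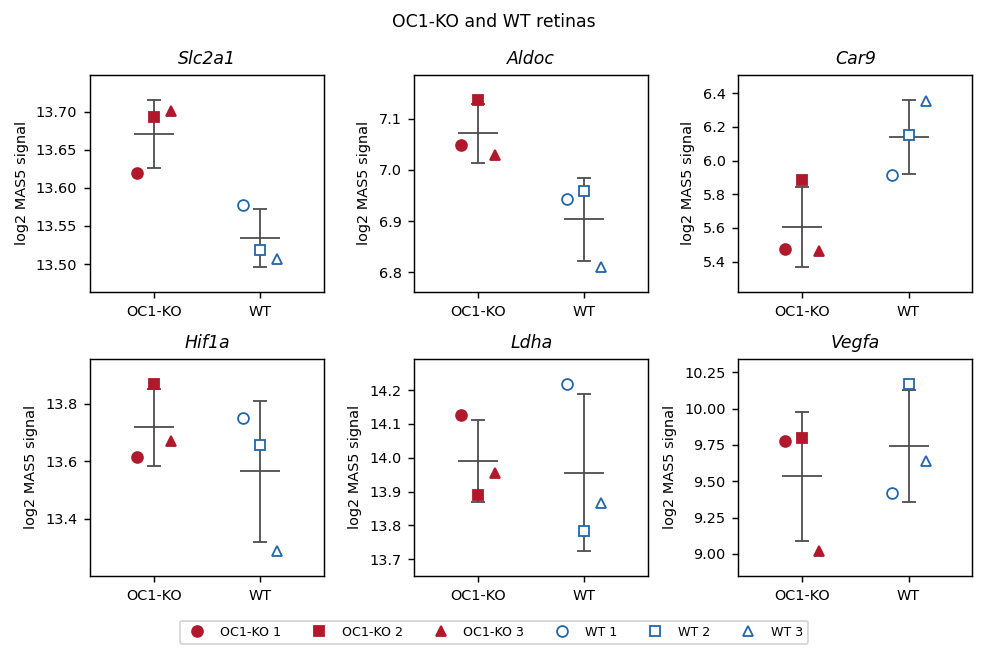
Log2 MAS5 signal of 6 genes in OC1-KO and WT retinas, each on an axis of its own. Each symbol is 1 embryo, its shape gives the number, the long bar is the mean and the whiskers are 1 SD (n = 3 each). Slc2a1 and Aldoc lie higher in OC1-KO and Car9 lower with no overlap, while Hif1a, Ldha and Vegfa overlap. Car9 is below the signal filter, and Aldoc passed it through its OC1-KO mean alone.

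Genes of oxygen sensing were higher in 6 of 7 on their brightest probe sets, with a median of 0.14. Hif1a, the alpha subunit that low oxygen stabilizes, had 13.62, 13.87 and 13.67 in OC1-KO and 13.75, 13.66 and 13.29 in WT. The groups overlapped, with a difference of 0.15 (SE 0.18; two-sided exact permutation test, p = 0.5). Of its other probe sets kept, 1 was higher by 0.43 (SE 0.26) and 1 lower, at -0.44 (SE 0.37). Epas1, the alpha subunit known from endothelium, had 8.02, 7.01 and 7.38 in OC1-KO and 7.02, 7.12 and 7.05 in WT, so its difference of 0.41 (SE 0.26) came largely from OC1-KO 1 (exact permutation test, p = 0.4). Arnt, the partner of both alpha subunits, differed by 0.14 (SE 0.26), and on its other probe set kept by -0.24 (SE 0.33).

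Vhl, the ubiquitin ligase subunit that removes hydroxylated HIF, was among the steadiest of the 35 on its brightest probe set. Its range there was 0.16 over the 6 arrays and its difference 0.02 (SE 0.14). On its other probe set kept Vhl ran from 6.93 to 7.77 and differed by 0.08 (SE 0.23). The prolyl hydroxylases Egln1 and Egln2 differed by 0.05 and -0.00, and Egln3, which is itself induced by HIF, by 0.21 (SE 0.28). On its other probe set kept Egln1 differed by -0.32 (SE 0.22). The exact permutation p of the 7 genes ran from 0.4 to 1.0, where 0.1 is the smallest that 3 against 3 arrays allow.

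The genes induced by low oxygen were higher in 4 of 7 kept, with a median of 0.11, and none separated the genotypes above the filter. Vegfa, the growth factor that draws vessels into the retina, had 9.78, 9.80 and 9.02 in OC1-KO and 9.42, 10.17 and 9.64 in WT. OC1-KO 3 was the lowest and WT 2 the highest, and the difference of -0.21 (SE 0.29) was 0.05 without OC1-KO 3. Its other probe set differed by -0.24 (SE 0.32). Bnip3, which triggers mitophagy, had 11.97, 12.41 and 11.56 in OC1-KO and 11.89, 11.96 and 11.70 in WT, a difference of 0.13 (SE 0.23) that was -0.08 without OC1-KO 2.

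Ddit4, an inhibitor of the growth kinase mTOR, was higher by 0.35 (SE 0.39) in OC1-KO, where it had 10.25, 9.65 and 10.50, against 9.14, 9.62 and 10.57 in WT. The difference lay between OC1-KO 1 and WT 1, at 1.10, while pairs 2 and 3 differed by 0.03 and -0.07. It was 0.04 without WT 1, and 0.75 without WT 3, where the unadjusted limma p was under 0.05. The collagen prolyl hydroxylases P4ha1 and P4ha2 differed by 0.15 (SE 0.19) and -0.06 (SE 0.24), and Ankrd37 by -0.17 (SE 0.16).

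Car9, the carbonic anhydrase at the cell surface that is a usual sign of low oxygen, stayed below the filter. It had 5.48, 5.88 and 5.46 in OC1-KO and 5.92, 6.15 and 6.36 in WT, so the 3 OC1-KO values were all under the 3 WT values. The share of probe sets below the filter with such a pattern was not counted. The difference was -0.54 (SE 0.23; limma over all probe sets, unadjusted p = 0.0607). Adm, a vasodilator peptide, also lay below the filter, at 5.22, 4.67 and 2.95 in OC1-KO and 4.74, 4.81 and 4.76 in WT, with the low value of OC1-KO 3 setting the difference of -0.49 (SE 0.60). The exact permutation p was 0.1 for Car9 and ran from 0.3 to 0.7 for the other genes of this role.

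**Figure D3:**
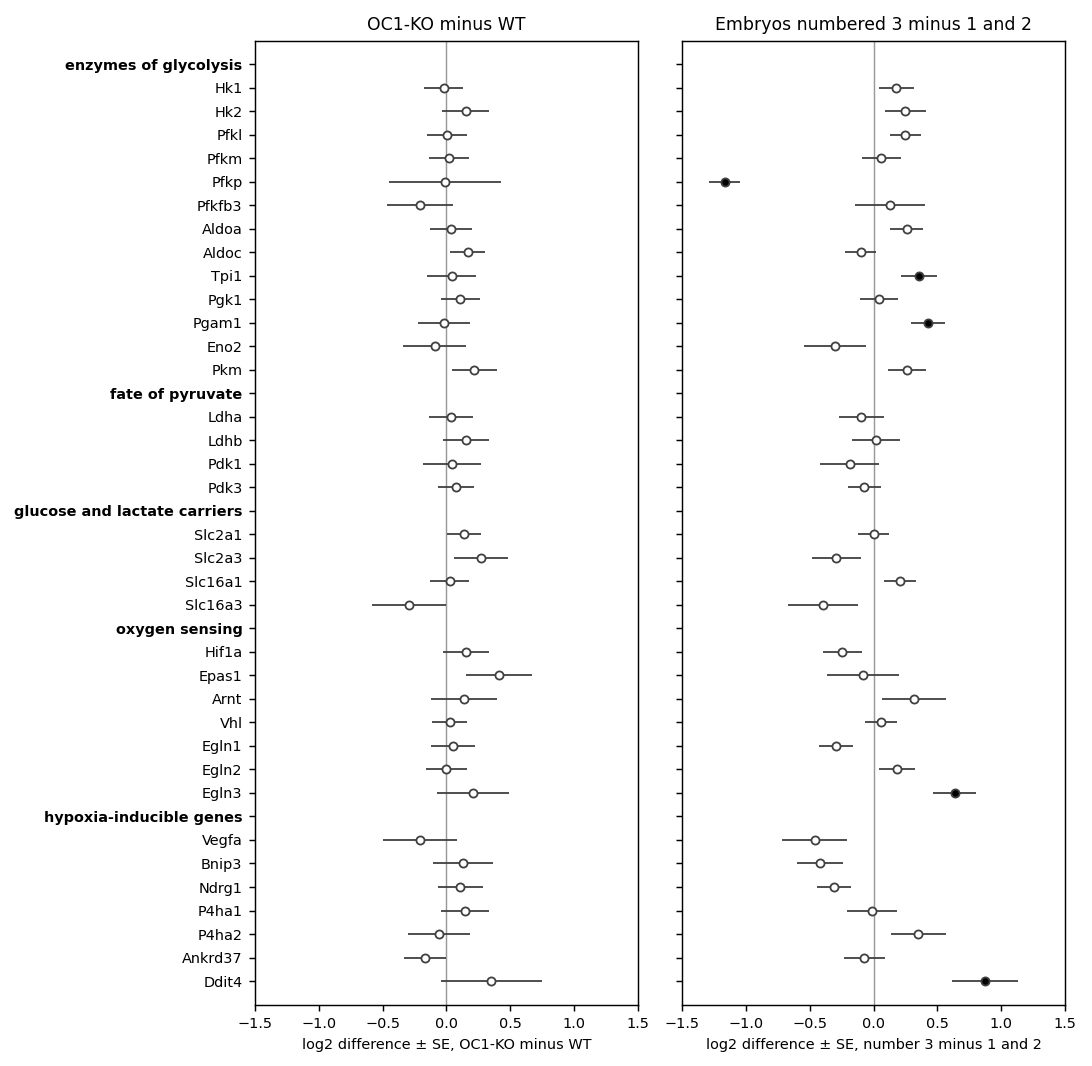
Log2 differences of the 35 genes kept with their SE from limma, OC1-KO minus WT on the left and embryos numbered 3 minus embryos 1 and 2 on the right, on the same scale. Filled points have an unadjusted p under 0.05: 0 genes on the left and Pfkp, Tpi1, Pgam1, Egln3 and Ddit4 on the right. The left panel lies within -0.29 to 0.41, and Pfkp reaches -1.17 on the right.

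Several glycolysis and hypoxia genes had larger log2 differences by embryo number than by genotype. The embryos numbered 3 were set against 1 and 2 because earlier results of these data had shown them apart, and arrays of 1 number are not independent here, so the p-values of this contrast are too small and are read only beside the share of all probe sets. Of the 35 genes, 19 were higher and 16 lower in the embryos numbered 3, with a median of 0.02. At an unadjusted limma p under 0.05, 4 were higher (11.4%) and 1 lower (2.86%), against 8.14% and 15.4% of all probe sets. Values that did not overlap were found for 9 genes higher (25.7%) and 4 lower (11.4%), against 14.9% and 23.5%. Egln3 is in both counts of higher genes, with a mean above the filter level only in the embryos numbered 3. The sums of lens, red cell, mesenchyme, pigment epithelium and macrophage markers and the 3′ to 5′ difference of Gapdh also moved with this number. The endothelial sum did too, but it is mostly Kdr, and Cldn5 moved the other way. The part of all these in the contrast was not tested.

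Pfkp, the platelet form of phosphofructokinase, which sets the pace of glycolysis, stood out in this contrast. It had 9.93 in OC1-KO 3 and 10.05 in WT 3, against 11.20 and 11.16 in OC1-KO 1 and 2 and 11.16 and 11.12 in WT 1 and 2. Within a number the genotypes lay within 0.11 of each other, and between the numbers they were more than 1 log2 unit apart. The difference was -1.17 (SE 0.12), and Pfkp was the 1 gene of the 35 with an adjusted p under 0.05 (limma, adjusted p = 0.0205), against 4.84% of all probe sets. Its second probe set kept differed by -0.83 (SE 0.42). The adjusted p of Pfkp was under 0.05 without OC1-KO 1 or without OC1-KO 2 and not without any of the other 4 arrays, while its difference stayed between -1.25 and -1.09. Between the genotypes Pfkp differed by -0.01 (SE 0.44), and by -0.38 to 0.40 with 1 array left out.

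Of the other forms of the same enzyme, the liver form Pfkl was at 0.25 (SE 0.12) in the embryos numbered 3 on its brightest probe set and at 0.55 and -0.50 on its others, and the muscle form Pfkm at 0.06 (SE 0.15). Enzymes of glycolysis were higher in these embryos for 10 of 13 (76.9%) on their brightest probe sets, with a median of 0.18. Over all probe sets kept the share was 45.5%. Of the 13, 5 (38.5%) were higher without overlap, against 14.9% of all probe sets kept. These were the hexokinase Hk1, Pfkl, the aldolase Aldoa, the triose isomerase Tpi1 and the mutase Pgam1. The other probe sets kept for Aldoa were higher by 0.03 to 0.26. Pgam1 had 13.20 in OC1-KO 3 and 13.16 in WT 3, against 12.64 and 12.82 in OC1-KO 1 and 2 and 12.73 and 12.81 in WT 1 and 2, a difference of 0.43 (SE 0.13). Tpi1 had 13.69 in OC1-KO 3 and 13.61 in WT 3, against 13.19 and 13.42 in OC1-KO and 13.20 and 13.37 in WT embryos 1 and 2, a difference of 0.36 (SE 0.14). In both genes the order on these probe sets was number 3, then number 2, then number 1 in each genotype. Tpi1 differed by 0.22 (SE 0.13) on another probe set kept, in the same order. On its last it differed by 0.15 (SE 0.27), and number 2 was highest in each genotype. After quantile normalization the differences were 0.31 for Pgam1 and 0.21 for Tpi1, each at an unadjusted p above 0.05.

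The hydroxylase Egln3 had 7.58 in OC1-KO 3 and 7.48 in WT 3, against 7.26 and 6.79 in OC1-KO 1 and 2 and 6.71 and 6.82 in WT 1 and 2. Egln3 was higher in the embryos numbered 3 by 0.63 (SE 0.17). Its mean was 7.53 there and 6.89 in the others, under the filter level of 7, so it does not count as support. Its other probe set lay below the filter, at 0.60 (SE 0.52). Ddit4 had 10.50 in OC1-KO 3 and 10.57 in WT 3, above the 10.25 and 9.65 of OC1-KO 1 and 2 and the 9.14 and 9.62 of WT 1 and 2, a difference of 0.87 (SE 0.26). Both genes are induced by low oxygen, but others of that kind lay the other way. Bnip3 differed by -0.42 (SE 0.18) without overlap, Vegfa by -0.46 (SE 0.26) with overlap, and the hydroxylase Egln1 by -0.30 (SE 0.13) without overlap, with its other probe set kept at 0.08 (SE 0.23). Hif1a differed by -0.24 (SE 0.15) on its brightest probe set, and by -0.86 (SE 0.22) and -0.06 (SE 0.29) on the others kept.

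Ndrg1, a stress and differentiation gene induced by HIF, had 10.82 in OC1-KO 3 and 10.72 in WT 3, against 11.25 and 11.04 in OC1-KO 1 and 2 and 10.98 and 11.07 in WT 1 and 2, a difference of -0.31 (SE 0.13). Its 5 probe sets kept did not share this direction, with 2 lower and 3 higher, by 0.11 to 0.37, and the mean over all probe sets was 0.01. Over the 17 genes with several probe sets kept, 11 had the same sign on all of them in this contrast, against 5 between the genotypes.

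**Figure D4:**
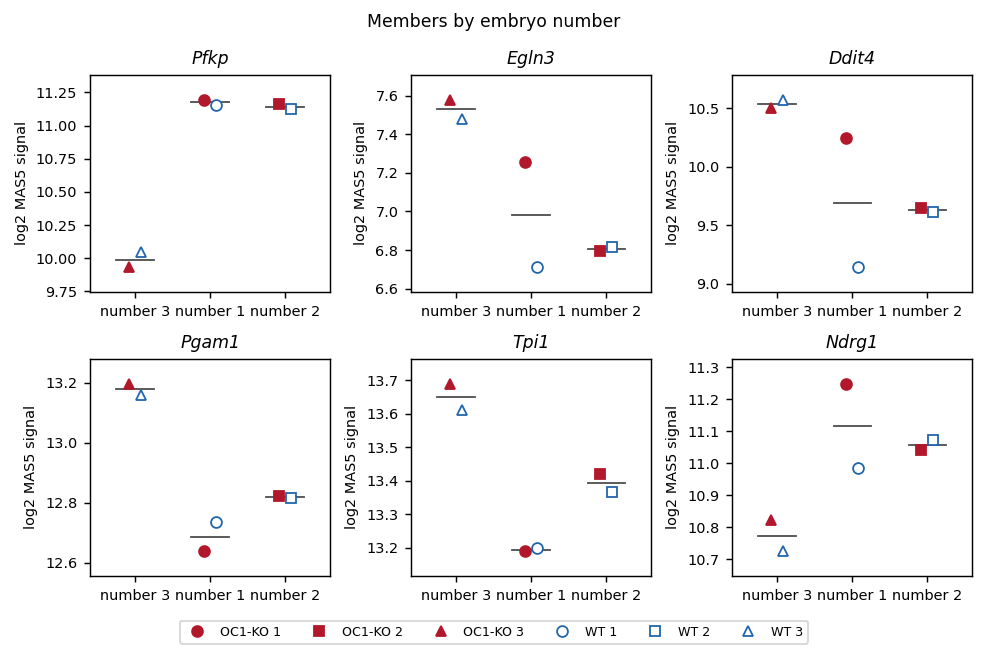
Log2 MAS5 signal by embryo number for the 6 genes of the list with the smallest p in the contrast of embryos numbered 3, each on an axis of its own. Filled red symbols are OC1-KO, open blue symbols WT, and the bar is the mean of the 2 embryos of a number. The embryos numbered 3 lie below the others for Pfkp and Ndrg1 and above them for Egln3, Ddit4, Pgam1 and Tpi1.

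Other genes of the same pathways were read from lists of their own. Of 12 other glycolysis genes kept, of 24 listed, 9 were higher and 3 lower in OC1-KO, with a median of 0.06. The insulin-responsive glucose transporter Slc2a4 was the 1 at an unadjusted limma p under 0.05. It had 8.30, 7.91 and 7.80 in OC1-KO and 7.56, 7.68 and 7.29 in WT, with no overlap and a difference of 0.50 (SE 0.19; limma, unadjusted p = 0.0381, adjusted p = 1.00). The brightest of this list, the lactate carrier chaperone Bsg and Bpgm, which makes bisphosphoglycerate, differed by 0.14 (SE 0.20) and 0.04 (SE 0.17).

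Pentose phosphate genes, which make ribose and NADPH from glucose, were higher in 6 of 7 kept, with a median of 0.12. Their transketolase Tkt differed by 0.14 (SE 0.16) and the ribose phosphate activating enzyme Prps1 by 0.14 (SE 0.23). Genes of pyruvate oxidation and the TCA cycle were higher in 17 of 22, with a median of 0.02 and all 22 within 0.25 of 0, among them the malate dehydrogenases Mdh1 and Mdh2 at -0.03 each. Of 21 other hypoxia genes kept, 9 were higher and 12 lower, with a median of -0.02, and the brightest, Pnrc1 and Fam162a, differed by -0.08 (SE 0.16) and -0.02 (SE 0.16). In these 3 lists limma and the methods' test called 0 genes at an unadjusted p under 0.05, and limma with the embryo number as a block called 1, the glycogen targeting subunit Ppp1r3c, at -0.45 (SE 0.26 without the block), which passed the filter through its WT mean alone.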

How the data were processed

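The authors hybridized amplified total RNA of each embryo's retinas to an Affymetrix mouse genome array and deposited MAS5 signal intensity per probe set on a linear scale, scaled to a common trimmed mean; no MAS5 version was found. Log2 was taken here with no further scaling. Of 45101 probe sets, 64 are controls and stayed outside the tests, and 20888 had a mean log2 signal above 7 in OC1-KO or WT, the filter of the study's methods, 18250 of them with 1 gene symbol in GEO's platform annotation, which can be old. OC1-KO was compared with WT, and embryos numbered 3 with 1 and 2 (with genotype as a term), by limma 3.58.1 in R 4.3.3 adjusted by Benjamini-Hochberg over these 20888. Genes below the filter, and Gapdh, were fitted with all probe sets. The unadjusted two-tailed t-test of the study's methods (the methods' test) was also run. Single genes were also compared by the exact permutation test. The fits were tested on simulated data. Precision rests on 3 arrays per genotype and on signal over background.

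Arrays with the same number pair: after removal of each genotype's mean they correlated at 0.51 to 0.67, and arrays of different numbers and genotypes at -0.44 to -0.04. No label names pairs; only the values do. Values in every array are given for genes whose genotypes did not overlap, the brightest gene of each role, the 6 genes with the smallest p by embryo number, and Hif1a, Vegfa, Slc2a1, Ldha and Gapdh; those of Pkm, Slc2a3, Epas1 and Adm were added after their values were seen. The genes, the lists and the contrast by number were chosen with earlier results of these data known. Alternatives were the embryo number as a block, embryos 1 and 2 alone, other filters and scalings, an offset, the mean of all probe sets of a gene, an intensity trend and each array left out. Promoter windows came from RefSeq. Python 3.11.15, pandas 2.3.3, scipy 1.17.1 and matplotlib 3.10.9 were used.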

Additional observations from a re-analysis of the deposited data

How the results depend on the processing

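Between OC1-KO and WT, 0 of the glycolysis and hypoxia genes and 0 probe sets had an adjusted p under 0.05 in each of the alternatives run, with the embryo number as a block among them. At an unadjusted p under 0.05 limma called 0 of the 35 genes, with the embryo number as a block 0, the methods' test 2, limma in embryos 1 and 2 alone 1 (Slc2a3), and limma with 1 array left out 0 to 1 (Epas1 without OC1-KO 2, Slc2a3 without OC1-KO 3, Ddit4 without WT 3). The count of higher genes was 16 of 29 with the mean of all probe sets of a gene. The median difference was 0.047 to 0.098 with 1 array left out. Over all probe sets, 77 were higher and 133 lower at an unadjusted p under 0.05, 327 and 586 with the block, 252 and 146 in embryos 1 and 2 alone, 611 and 694 with no filter, and 61 to 222 and 85 to 254 with 1 array left out.

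Small differences changed sign. Pfkp was 0.039 in embryos 1 and 2 alone, 0.011 after quantile normalization and 0.091 with the mean of all probe sets, and quantile normalization put Ldha at -0.028 and Tpi1 at -0.023. With 1 array left out the range was -0.051 to 0.17 for Ldha, -0.084 to 0.34 for Bnip3, -0.38 to 0.40 for Pfkp, -0.17 to 0.11 for Pgam1, -0.087 to 0.16 for Tpi1 and -0.37 to 0.047 for Vegfa. The cause was not tested.

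By embryo number, 1011 probe sets had an adjusted p under 0.05, 2012 with all 3 numbers as levels (the replicate block), 0 with no filter, 24 with the mean of all probe sets and 0 to 816 with 1 array left out. Of the 35 genes, 1 was called at an adjusted p, 0 with no filter, 0 with the mean of all probe sets and 0 to 1 with 1 array left out. At an unadjusted p, 5 were called, 3 with no filter, 9 with an intensity trend and 3 to 6 with 1 array left out. The median was 0.063 with arrays centred on their medians and -0.0056 to 0.064 with 1 array left out. Ndrg1 was 0.0061 with the mean of all probe sets. With fewer arrays the fits have fewer degrees of freedom.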
